A study of Mus musculus with 6 samples.

Results

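The metabolic nuclear receptors of the liver described here are 10 genes: Rxra, Ppara, Pparg, Nr1i2, Nr1i3, Nr1h3, Nr1h4, Nr0b2, Thrb and Esr1. Every probe set that the array annotation assigned to exactly 1 of these symbols was taken, which gave 122 of the 229581 probe sets and 10 of the 16277 genes measured. Liver RNA came from untreated mice of 1 month of age and was hybridised to 6 mouse exon arrays (Affymetrix), on which separate probe sets read the exons of a gene. The SRSF3HKO group holds 3 mice in which Srsf3, which encodes an SR protein that regulates splicing, was knocked out in hepatocytes, the parenchymal cells of the organ. The WT group holds 3 arrays of wild-type littermates matched for age. The labels used here do not name the Cre driver or the deleted part of Srsf3, nor do they give the sex of a mouse, and they do not say that each WT array came from its own mouse. The p-values therefore measure the spread between these samples only.

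Nuclear receptors are transcription factors that are switched by small lipophilic ligands such as fatty acids, sterols, bile acids, drugs and hormones. RXR alpha, the product of Rxra, is the shared partner: the PPARs, PXR (Nr1i2), CAR (Nr1i3), LXR alpha (Nr1h3), FXR (Nr1h4) and the thyroid hormone receptor (Thrb) bind DNA as a pair with it, mostly at repeats of the hexamer AGGTCA. The orphan receptor SHP (Nr0b2) has no DNA-binding domain and acts as a corepressor, and the oestrogen receptor (Esr1) binds its own kind of element as a pair with itself.

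The hexamer can be seen in promoters of the receptors and of their target genes. The 4 sequences printed here are the 250 bases before a RefSeq start site (GRCm38.p6), 5′ to 3′ on the strand of the gene, with the letters that match the hexamer or the looser repeat named after them, on either strand, in capitals. Rxra and Thrb are shown because both transcripts fell and both promoters hold the hexamer, Abcb11 as a bile salt exporter gene that fell, and Fabp1, chosen after its values were seen, as the one target gene with a match to a spaced repeat.
Rxra, chr2:27709042-27709291, plus strand: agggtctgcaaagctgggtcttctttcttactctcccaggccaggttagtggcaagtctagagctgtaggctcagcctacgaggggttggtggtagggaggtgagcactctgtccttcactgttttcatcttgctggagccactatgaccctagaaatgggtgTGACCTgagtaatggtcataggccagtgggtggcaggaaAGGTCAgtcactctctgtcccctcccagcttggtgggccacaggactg
Thrb, chr14:17660710-17660959, plus strand: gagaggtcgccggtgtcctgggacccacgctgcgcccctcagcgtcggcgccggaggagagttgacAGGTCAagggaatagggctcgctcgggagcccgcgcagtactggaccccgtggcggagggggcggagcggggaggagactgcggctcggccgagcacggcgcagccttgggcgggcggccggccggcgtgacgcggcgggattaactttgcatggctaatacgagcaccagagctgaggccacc
Abcb11, chr2:69342617-69342866, minus strand: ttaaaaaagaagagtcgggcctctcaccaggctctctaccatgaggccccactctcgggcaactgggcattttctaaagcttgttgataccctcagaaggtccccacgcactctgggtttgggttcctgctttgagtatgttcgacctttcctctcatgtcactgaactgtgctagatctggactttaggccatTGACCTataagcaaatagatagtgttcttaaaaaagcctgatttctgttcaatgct
Fabp1, chr6:71199629-71199878, plus strand: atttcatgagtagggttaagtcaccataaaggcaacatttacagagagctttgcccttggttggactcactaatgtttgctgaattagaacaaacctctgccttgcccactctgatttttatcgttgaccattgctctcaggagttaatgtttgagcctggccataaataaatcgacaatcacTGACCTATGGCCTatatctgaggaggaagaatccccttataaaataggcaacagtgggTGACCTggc
All motifs were searched on both strands. The hexamer AGGTCA occurred 2 times in the Rxra window, the first at -87 to -82 from the start, and 1 time in that of Thrb at -184 to -179 and of Abcb11 at -56 to -51. It occurred 2 times in the Fabp1 window, the first at -67 to -62. The Fabp1 window also matched a looser direct repeat, AGGNCA repeated after 1 base, which can overlap the hexamer, at -67 to -55. The hexamer was present in 5 of the 16 annotated promoters of the receptor genes (31.2%), which belong to Nr1h4, Pparg, Rxra and Thrb. It was present in 16 of 77 promoters of genes on the target lists (20.8%), and in 14.0% of all 32851 promoters of that length. The looser repeat was present in 0.338% of all promoters. The stricter forms, AGGTCA repeated after 1 base or after 4 bases and AGGTCA followed after 1 base by its inverse TGACCT, had no match among these receptor and target promoters and occurred in 0.0335%, 0.0152% and 0.00609% of all. These matches describe letters only, since the arrays measured RNA and not binding.

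Over all probe sets the median intensity of an array lay between 75.3 and 89.6. Levels are given as log2(intensity + 16), on which scale fold changes of dim genes are understated, and the level of a gene is the median over its probe sets. Across the 11707 genes that passed the filter on low values, arrays correlated at r = 0.973 to 0.981 within WT, 0.904 to 0.948 within SRSF3HKO and 0.851 to 0.920 between the genotypes, and genes are not independent replicates. The Srsf3 gene level was 9.79, 9.24 and 9.35 on the WT arrays and 10.30, 9.10 and 9.78 on the SRSF3HKO arrays, so the gene level did not separate the genotypes. Of its 13 tested probe sets, 3 lay lower relative to the rest of the gene by limma's diffSplice (adjusted p 0.0091 to 0.0243), and 6 rose by themselves (changes of 1.25 to 1.68). The Y-linked gene Eif2s3y was above 8 (log2) on WT replicates 1 and 2 and SRSF3HKO replicate 3, and below 5 on the other arrays, so the arrays of each group were mixed in this signal of sex. SRSF3HKO was compared with WT in limma across all tested genes, and a gene is said to have risen or fallen where its Benjamini-Hochberg adjusted p was under 0.05.

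Of the 10 receptor genes, 4 fell in SRSF3HKO liver and 0 rose, against 11.9% of all tested genes changed in either direction, 5.03% lower and 6.85% higher. The 4 were Rxra, Ppara, Thrb and Esr1 with differences of 1.71- to 2.11-fold. The change was negative for 8 of the 10, against 42.6% of all tested genes, and the median change was -0.80 against 0.08 over all tested genes. At an unadjusted p under 0.05, limma placed 6 receptors lower and 1 higher, Pparg. The share of all tested genes or probe sets at that threshold was not counted, so this and later unadjusted counts stand without a background. The genotypes did not overlap for 6 receptors, the 4 that fell plus Nr1h3 and Pparg, against 35.6% of all tested genes. All 10 receptor genes passed the filter on low values, as their mean lay above a floor of 5.35 (log2) set by sensory receptor genes that the liver is not known to express. WT replicate 2 was the lowest WT array for all 10 receptors, and its median intensity was also the lowest of the 6 arrays.

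**Figure D1:**
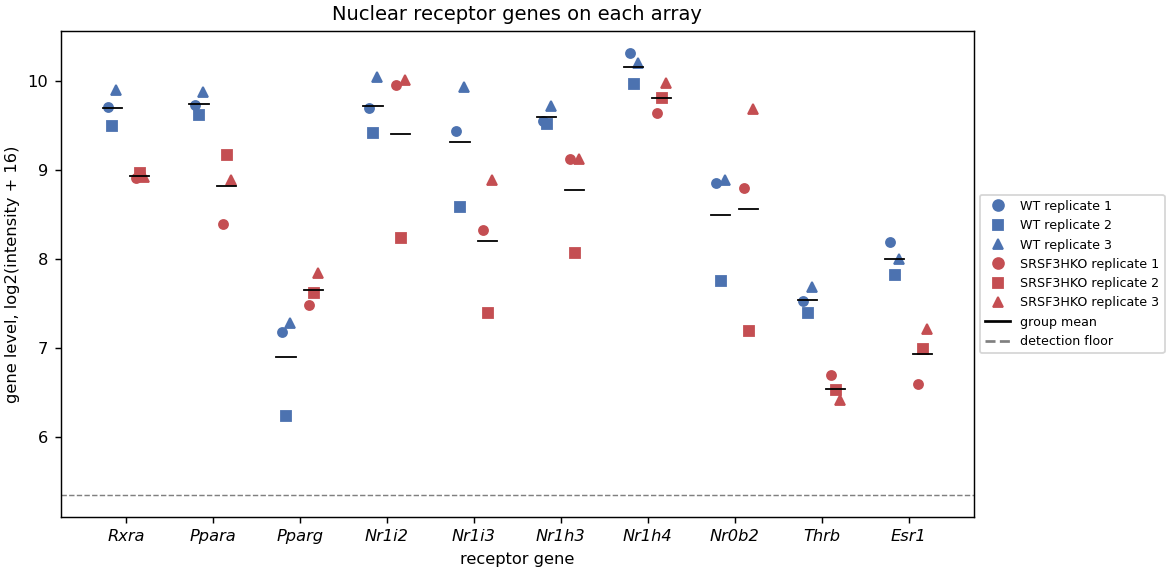
Level of each receptor gene, log2(intensity + 16), on the 3 WT arrays (blue) and the 3 SRSF3HKO arrays (red), with the marker shape for the replicate, a bar for the group mean and a dashed line for the detection floor at 5.35. Rxra, Ppara, Thrb, Esr1 and Nr1h3 are lower on every SRSF3HKO array than on every WT array, and Pparg is higher.

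**Figure D2:**
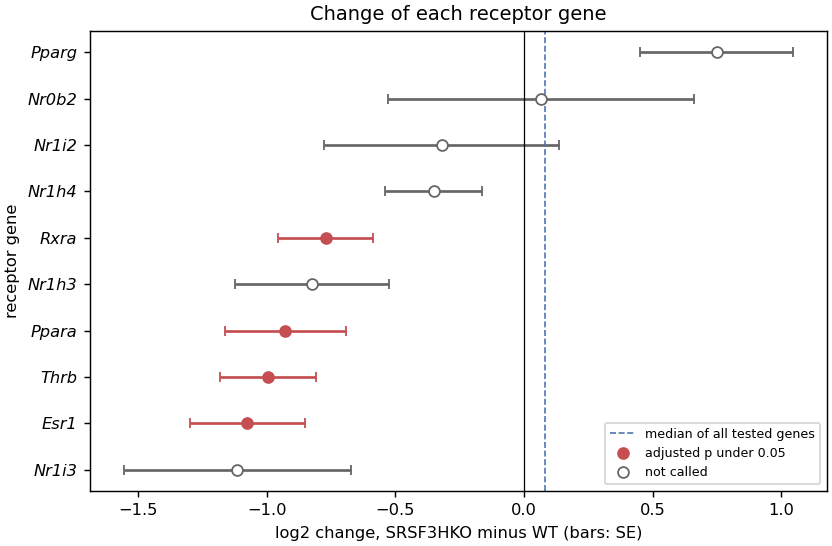
Log2 change of each receptor gene, SRSF3HKO minus WT, with bars for the standard error from limma (3 arrays a group), filled where the adjusted p was under 0.05. The changes run from -1.11 for Nr1i3 to 0.75 for Pparg, and the dashed line marks the median over all tested genes, 0.08.

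Rxra, the shared partner of most of these receptors, fell. Its level was 9.71, 9.50 and 9.90 on the WT arrays and 8.91, 8.96 and 8.92 on the SRSF3HKO arrays. The SRSF3HKO values lay close together and all below the lowest WT array. The change was -0.77 ± 0.19 (SE, n = 3 per group), a 1.71-fold difference, with an adjusted p of 0.0349 in limma. Of its 14 tested probe sets, 8 fell, against 4.32% of all tested probe sets, for instance probe set 4693756 from an intensity of 1826 ± 271 to 1002 ± 42 (SD, n = 3). The call ended without WT replicate 1, 2 or 3 (adjusted p 0.136, 0.0789 and 0.14) and without SRSF3HKO replicate 1 or 3 (0.0699 and 0.0713), and held without SRSF3HKO replicate 2 (0.0213), with a change between -0.87 and -0.67; with the mean over probe sets as the gene level it was -0.55 (0.0758). Its paralogs Rxrb and Rxrg, named after their values were seen, had changes of 0.37 (adjusted p 0.385 in limma) and -1.01 (0.06).

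The fatty acid receptors Ppara and Pparg differed in the sign of their change. Ppara, the receptor that drives fatty acid oxidation in fasting, had WT levels of 9.74, 9.62 and 9.88 and SRSF3HKO levels of 8.39, 9.17 and 8.89. Every SRSF3HKO array lay below every WT array, and SRSF3HKO replicate 1 was the lowest. Ppara fell by 0.93 ± 0.23 on the log2 scale (SE, n = 3 per group; 1.90-fold; adjusted p 0.0404 in limma). Of its 11 tested probe sets, all had a negative change and 3 fell, such as probe set 5446416 from 2104 ± 369 to 847 ± 270 (intensity, SD, n = 3). Without WT replicate 1, 2 or 3 the adjusted p was 0.139, 0.113 and 0.142, without SRSF3HKO replicate 1 or 3 it was 0.079 and 0.0723, and without SRSF3HKO replicate 2 the call held at 0.0103. The call also ended with the mean or median polish over probe sets (0.0639 and 0.0618) and without a filter on low values (0.0523).

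Pparg, the receptor of fat storage that normal liver expresses at a low level, went the other way without passing the test. Its level was 7.18, 6.23 and 7.28 on the WT arrays and 7.48, 7.62 and 7.84 on the SRSF3HKO arrays. The groups did not overlap, although WT replicates 1 and 3 lay close to the lowest SRSF3HKO array and WT replicate 2 lay far below. The change was 0.75 ± 0.30 (SE, n = 3 per group; adjusted p 0.138 in limma), and 0.42 (adjusted p 0.323) without WT replicate 2. It was 1.13 among the 3 arrays with Y-linked signal (2 WT, 1 SRSF3HKO) and 0.27 among the 3 without (1 WT, 2 SRSF3HKO). Each such split rests on 1 array in 1 group, here and for the receptors below. The level of Pparg minus that of Ppara was -2.56, -3.39 and -2.60 on the WT arrays and -0.91, -1.55 and -1.05 on the SRSF3HKO arrays. These did not overlap: the change of Pparg exceeded that of Ppara by 1.68, with a two-sided exact permutation p of 0.1 over 20 splits, the smallest that 3 against 3 arrays can give. Leaving out any 1 array gave 1.41 to 1.87. Ppard, the third PPAR, named after its values were seen, had a change of 0.57 (adjusted p 0.0716 in limma).

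Textbook target genes of the PPARs were counted next. Of 17 tested PPAR alpha targets, 1 rose and 0 fell, 5.88% against 11.9% of all tested genes, and the median change was 0.17. At an unadjusted p under 0.05, limma placed 1 higher and 3 lower. Pdk4, a kinase that shuts down pyruvate oxidation, rose from 5.88, 5.30 and 5.92 to 7.24, 9.56 and 7.56, a change of 2.42 ± 0.55 (SE, n = 3 per group; adjusted p 0.0287 in limma), which did not pass without WT replicate 1, 2 or 3 (0.0979, 0.128 and 0.0832). The fatty acid omega-hydroxylases Cyp4a10 and Cyp4a14 had changes of -0.75 (adjusted p 0.158) and -0.05 (0.958), and the sign for Cyp4a14 turned under quantile normalization (0.04). Fabp1, a fatty acid carrier, was at 13.55, 13.49 and 13.43 in WT and 12.97, 9.25 and 12.05 in SRSF3HKO liver, a change of -2.06 ± 0.79 (adjusted p 0.128), with SRSF3HKO replicate 2 far below the others.

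Of 6 tested PPAR gamma targets, 2 rose and 0 fell, 33.3% against 11.9% of all tested genes, with a median change of 0.49. Cidec, a protein that enlarges lipid droplets, was at 4.86, 4.45 and 5.33 on the WT arrays, all under the floor, and at 10.93, 10.63 and 10.51 on the SRSF3HKO arrays. It was at least 40.5-fold higher in SRSF3HKO liver (adjusted p 8.68e-05 in limma), computed from the floor, and its call held on leaving out any 1 array. Cidec passed the filter on low values only through its SRSF3HKO arrays, so the share of 33.3% depends in part on the outcome. Adipoq, Cidea and Mogat1, also on the list, did not pass the filter. Cd36, a fatty acid translocase, rose from 8.37, 8.06 and 9.34 to 10.44, 9.90 and 9.75, a change of 1.44 ± 0.35 (adjusted p 0.0356), a call lost when WT replicate 1 or 2 or SRSF3HKO replicate 1 or 3 was left out (adjusted p 0.0525 to 0.137). Fabp4, the fatty acid binding protein of fat cells, had a change of 0.47 (adjusted p 0.212).
Of 5 tested adipocyte markers, 1, Car3, fell and 0 rose in limma (also 0 higher at an unadjusted p under 0.05), Adipoq and Lep did not pass the filter, and Fabp4 and Plin1 stand on both lists. The summed intensity of the 7 adipocyte markers was 11127 to 12990 in WT and 315 to 850 in SRSF3HKO liver, a difference that Car3 carried: the other 6 summed to 208 to 273 in WT and 245 to 312 in SRSF3HKO liver. Car3 was at 13.64, 13.52 and 13.41 on the WT arrays, on all of which Adipoq lay under the floor. The fall of Car3 is therefore not read as one of adipocytes. Of 7 macrophage markers, 1, Marco, rose, 14.3% against 11.9% of all tested genes, and 6 had a positive change. At an unadjusted p under 0.05, limma placed 3 of them higher and 0 lower. The summed intensity of the 7 was 2092 to 2399 in WT against 13800, 2730 and 2747 on SRSF3HKO replicates 1, 2 and 3. Among the SRSF3HKO arrays, Cd36 was highest and Pparg lowest on that same replicate 1 (Pparg 7.48 against 7.62 and 7.84); the part of macrophage RNA in the level of Cd36 or Pparg was not tested.

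The drug and xenobiotic sensors PXR and CAR switch on enzymes and transporters that clear foreign compounds. Nr1i2, the PXR gene, had WT levels of 9.70, 9.42 and 10.05 and SRSF3HKO levels of 9.96, 8.23 and 10.01. Only SRSF3HKO replicate 2 lay outside the WT range. The change was -0.32 ± 0.46 (SE, n = 3 per group; adjusted p 0.689 in limma), and 0.26 without SRSF3HKO replicate 2. Nr1i3, the CAR gene, had WT levels of 9.44, 8.59 and 9.94 and SRSF3HKO levels of 8.33, 7.39 and 8.89. Both groups spread widely and overlapped, since WT replicate 2 lay below SRSF3HKO replicate 3. The change of -1.11 ± 0.44 (adjusted p 0.139) did not pass the test and ran from -1.48 to -0.71 on leaving out 1 array; all 15 of its tested probe sets had a negative change and 1 fell, probe set 4452834 from 872 ± 327 to 324 ± 145 (intensity, SD, n = 3). Among the arrays with Y-linked signal (2 WT, 1 SRSF3HKO) the change of Nr1i3 was -0.12, and among those without (1 WT, 2 SRSF3HKO) it was -2.07. The corresponding changes of Nr1i2 were 0.46 and -0.96. With 1 array in 1 group of each split, these values cannot be told apart from differences between single arrays.

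Of 13 tested PXR and CAR targets, 2 rose and 2 fell, 30.8% against 11.9% of all tested genes, and the median change was -0.06. The defining targets did not pass the test: Cyp3a11, the main drug-oxidising P450 under PXR, was at 13.79, 13.73 and 13.72 in WT and 13.70, 13.49 and 13.87 in SRSF3HKO liver, a change of -0.06 ± 0.15 (SE; adjusted p 0.841 in limma). Cyp2b10, the classical CAR target, was at 8.89, 8.62 and 9.12 in WT and 7.75, 8.59 and 10.50 in SRSF3HKO liver, a change of 0.07 ± 0.60 (adjusted p 0.953). The sign of the first turned without SRSF3HKO replicate 2 (0.04) and that of the second without SRSF3HKO replicate 3 (-0.71) and under quantile normalization (-0.01). Gadd45b, a stress-inducible growth arrest gene, rose by 2.61 ± 0.30 (adjusted p 0.00254), from 5.71, 5.53 and 6.15 to 8.71, 8.71 and 7.80, and its call held on leaving out any 1 array. Abcb1a, a drug efflux pump, rose by 1.74 ± 0.35 (0.019). Aldh1a1, a retinaldehyde dehydrogenase, fell by 1.52 ± 0.27 (0.0132) and Cyp2c29, a P450 of arachidonic acid and drugs, fell by 1.01 ± 0.26 (0.0402). The call of Abcb1a ended without WT replicate 1 or 2 (adjusted p 0.0786 and 0.0603), that of Aldh1a1 without WT replicate 1, 2 or 3 (0.0708, 0.0578 and 0.06), and that of Cyp2c29 on leaving out any 1 array other than SRSF3HKO replicate 3 (0.053 to 0.141).

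The sterol sensor LXR alpha is encoded by Nr1h3. Its level was 9.55, 9.51 and 9.72 on the WT arrays and 9.12, 8.07 and 9.13 on the SRSF3HKO arrays. The groups did not overlap, and SRSF3HKO replicate 2 lay more than 1 log2 unit below the other SRSF3HKO arrays. The change was -0.82 ± 0.30 (SE, n = 3 per group; adjusted p 0.113 in limma), and -0.47 without SRSF3HKO replicate 2 (adjusted p 0.0749). All 15 tested probe sets had a negative change, and 2 fell, probe set 4405386 from 233 ± 17 to 91 ± 39 and probe set 5275783 from 486 ± 28 to 204 ± 86 (intensity, SD, n = 3). Of 11 tested LXR targets, 1 rose and 1 fell, 18.2% against 11.9% of all tested genes, and the median change was -0.04. Abcg5, a subunit of the biliary sterol exporter, rose by 0.83 ± 0.23 (adjusted p 0.04998 in limma) and Scd1, the stearoyl-CoA desaturase, fell by 1.73 ± 0.31 (0.0136). Abca1, a cholesterol exporter, had a change of -0.15 (adjusted p 0.697), which was 0.02 without WT replicate 1, and Srebf1, the regulator of fatty acid synthesis, one of -1.24 (0.0797). The call of Abcg5 lay at the threshold: it ended on leaving out any 1 array other than SRSF3HKO replicate 1 (adjusted p 0.0548 to 0.177) and in all but 4 of the 19 alternatives run. That of Scd1 ended without WT replicate 1, 2 or 3 (0.074, 0.066 and 0.0588).

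The bile acid sensor FXR and its downstream repressor SHP did not pass the test. Nr1h4, the FXR gene, had WT levels of 10.31, 9.97 and 10.21 and SRSF3HKO levels of 9.65, 9.82 and 9.98. The groups met at their edges, WT replicate 2 and SRSF3HKO replicate 3. The change was -0.35 ± 0.19 (SE, n = 3 per group; adjusted p 0.259 in limma). Nr0b2, the SHP gene, had WT levels of 8.85, 7.75 and 8.89 and SRSF3HKO levels of 8.80, 7.19 and 9.69. It varied more within each genotype than between them, with replicate 2 of each group the lowest. The change was 0.07 ± 0.60 (adjusted p 0.957 in limma). It was -0.31, -0.05 and -0.50 without WT replicate 2, SRSF3HKO replicate 1 and SRSF3HKO replicate 3. With Y-linked signal it was 1.39 and without it -0.89, each with 1 array in 1 group.

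Of 10 tested FXR and SHP targets, 4 fell and 1 rose, 50% against 11.9% of all tested genes. A negative change was seen for 8, and the median change was -1.04. This list pools genes that FXR switches on with genes repressed through SHP. Its counts and median therefore give no direction of FXR or SHP output. Cyp8b1, the sterol 12-alpha-hydroxylase that sets the share of cholic acid, was at 10.01, 9.79 and 10.44 in WT and 6.50, 7.15 and 5.48 in SRSF3HKO liver. It fell by 3.70 ± 0.40 (SE, n = 3 per group; adjusted p 0.00216 in limma), and its call held on leaving out any 1 array. Cyp7a1, the rate-limiting enzyme of bile acid synthesis, was at 9.62, 9.25 and 11.13 in WT and 8.78, 4.70 and 7.08 in SRSF3HKO liver. The groups did not overlap, but the SRSF3HKO arrays spread widely and the change of -3.15 ± 0.93 did not pass the test (adjusted p 0.0631). It was -4.11 without SRSF3HKO replicate 1, where it passed (0.014), and -2.07 without SRSF3HKO replicate 2 (0.0572); it also passed with array weights (0.0296) and a pseudocount of 64 (0.0499). The bile salt exporter Abcb11 fell by 1.40 ± 0.37 (0.0464), the secreted protein Fetub by 1.09 ± 0.18 (0.0111), and Baat, the bile acid conjugating enzyme, named after its values were seen, by 1.38 ± 0.37 (0.0491). Slc51b, a subunit of the basolateral bile acid exporter, rose by 2.45 ± 0.61 (0.0388), from 5.52, 4.45 and 6.22 to 8.74, 6.53 and 8.26. Its WT levels lay around the floor of 5.35, with WT replicate 2 under it. Slc51a, also on the list, did not pass the filter. Without WT replicate 1, 2 or 3 the adjusted p was 0.147, 0.14 and 0.141 for Abcb11 and 0.0621, 0.054 and 0.0541 for Fetub. The change of Abcb11 was -0.92 without SRSF3HKO replicate 2, and its call also ended under quantile normalization (0.0624) and without a filter (0.0573). The call of Slc51b held only without SRSF3HKO replicate 2 (0.0623 to 0.149 otherwise).

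Thrb, the thyroid hormone receptor that predominates in liver, had the lowest adjusted p of the 10 receptors. Its level was 7.53, 7.39 and 7.69 on the WT arrays and 6.69, 6.52 and 6.41 on the SRSF3HKO arrays. The lowest WT array stood above the highest SRSF3HKO array by more than the range within either group. Thrb fell by 1.00 ± 0.19 (SE, n = 3 per group; 1.99-fold; adjusted p 0.0159 in limma). All 7 of its tested probe sets fell, with changes from -1.33 to -0.84, for instance probe set 4743993 from 359 ± 24 to 138 ± 28 (intensity, SD, n = 3). The change was -1.05 among arrays with Y-linked signal and -1.08 among those without, each with 1 array in 1 group. With that signal in the limma fit, the call of Thrb held (adjusted p 0.0326), whereas those of Rxra, Ppara and Esr1 did not (0.0695, 0.0892 and 0.0629). Without WT replicate 1, 2 or 3 the adjusted p of Thrb was 0.0788, 0.0551 and 0.077, and it passed on leaving out any 1 SRSF3HKO array. Thra, the other thyroid hormone receptor gene, named after its values were seen, had a change of -0.16 (adjusted p 0.611).
Of 7 tested thyroid hormone targets, 2 fell and 0 rose, 28.6% against 11.9% of all tested genes, with a median change of -0.38. At an unadjusted p under 0.05, limma placed 3 lower and 0 higher. Dio1, the deiodinase that activates thyroxine, was at 7.54, 9.45 and 10.25 in WT and 4.70, 4.36 and 6.12 in SRSF3HKO liver. It was at least 13.3-fold lower, computed from the floor (adjusted p 0.012 in limma; 0.0736 without WT replicate 2). Me1, the malic enzyme that supplies NADPH, fell by 1.06 ± 0.27 (adjusted p 0.0388), a call that held only without SRSF3HKO replicate 2 (0.0509 to 0.154 otherwise). Thrsp, a lipogenic regulator, was at 11.56, 10.49 and 11.66 in WT and 6.95, 4.97 and 10.71 in SRSF3HKO liver. SRSF3HKO replicate 3 lay within the WT range, and the change of -3.69 ± 1.21 did not pass the test (adjusted p 0.0845). Without SRSF3HKO replicate 3 it was -5.28 and passed (0.00463), and without SRSF3HKO replicate 2 it was -2.41 (0.116).

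Esr1, the oestrogen receptor of hepatocytes, fell. Its level was 8.19, 7.82 and 8.00 on the WT arrays and 6.59, 6.98 and 7.21 on the SRSF3HKO arrays. The groups were well apart, with SRSF3HKO replicate 1 the lowest. The change was -1.08 ± 0.22 (SE, n = 3 per group, 2.11-fold, adjusted p 0.0217 in limma). It was -0.79 among arrays with Y-linked signal and -1.22 among those without, each with 1 array in 1 group. Without WT replicate 1, 2 or 3 the adjusted p was 0.106, 0.0704 and 0.0866, and it passed on leaving out any 1 SRSF3HKO array. Of the 3 tested genes on the list of oestrogen targets and inactivation, 2 rose and 1 fell, against 11.9% of all tested genes changed. Greb1 and Pgr did not pass the filter, and Sult1e1 passed it only through its SRSF3HKO arrays. These counts therefore give no direction of oestrogen receptor output. Sult1e1, the sulfotransferase that inactivates oestrogens, was under the floor on all WT arrays at 4.33, 4.71 and 5.11 and at 8.33, 10.51 and 10.98 on the SRSF3HKO arrays. It was at least 24.1-fold higher (adjusted p 0.00286 in limma), and the call held on leaving out any 1 array. Hsd17b2, which oxidises oestradiol to oestrone, fell by 2.68 ± 0.48 (adjusted p 0.0131; 0.0705 and 0.0769 without WT replicate 1 and 2). Ctsd, a lysosomal protease, rose by 0.74 ± 0.18 (0.0388; 0.0714 to 0.144 without any 1 WT array or SRSF3HKO replicate 1).

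The exon arrays also show how many probe sets of a receptor changed, though their places in the gene were not determined here. Over the 122 probe sets, 114 passed the filter, of which 28 fell and 0 rose in limma, against 9.05% of all tested probe sets changed in either direction and 4.73% higher. At an unadjusted p under 0.05, limma placed 61 lower and 7 higher, all 7 of Pparg, with no share of all tested probe sets counted at that threshold. By gene, 7 of 7 tested probe sets fell for Thrb, 8 of 14 for Rxra, 7 of 15 for Esr1, 3 of 11 for Ppara, 2 of 15 for Nr1h3 and 1 of 15 for Nr1i3. Probe sets of 1 gene share its RNA and are not replicates. No probe set fell for Nr1i2, Nr1h4, Nr0b2 or Pparg in limma, where 0, 3, 0 and 0 were lower at an unadjusted p under 0.05.

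**Figure D3:**
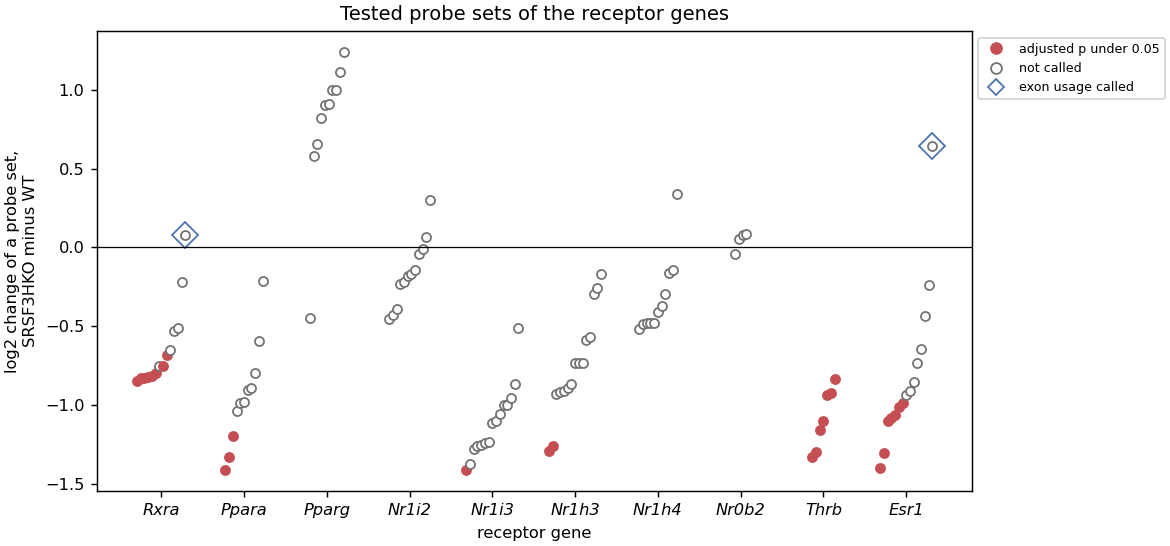
Log2 change of each tested probe set, SRSF3HKO minus WT, sorted within its receptor gene, filled where limma's adjusted p was under 0.05 and framed by a diamond where its exon usage passed diffSplice. The 7 probe sets of Thrb are all filled, and 9 of the 10 of Pparg lie above 0.

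Exon usage, which sets the change of a probe set against that of the rest of its gene, passed limma's diffSplice for 2 receptor probe sets, against 0.664% of all tested probe sets. At gene level by the Simes method, Esr1 (adjusted p 0.000476) and Rxra (0.0413) passed, against 5.82% of all tested genes. Probe set 5486154 of Esr1 had intensities of 72, 43 and 35 on the WT arrays and 72, 83 and 100 on the SRSF3HKO arrays. WT replicate 1 equalled the lowest SRSF3HKO array, and the other WT arrays were lower. Its own change of 0.65 ± 0.29 did not pass the test (adjusted p 0.195 in limma), but relative to the rest of Esr1, whose other 14 tested probe sets were all negative, it was higher by 1.55 (diffSplice adjusted p 0.000352). The per-array splicing index gave 1.72 for it with an adjusted p of 0.0766 in limma. No other probe set of Esr1 was called for exon usage, so the Simes result of Esr1 rests on this one. On WT replicates 2 and 3 it lay near the probe set floor of 33.3.

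Probe set 5453750 of Rxra, at 34.5 ± 14.4 in WT and 36.7 ± 12.1 in SRSF3HKO liver (intensity, SD, n = 3), lay close to the probe set floor of 33.3. It changed by 0.08 while the gene fell, a relative rise of 0.77 (diffSplice adjusted p 0.0319; 0.407 by the splicing index), and it did not pass without WT replicate 2 or 3 (0.184 and 0.103). Without WT replicate 1 or SRSF3HKO replicate 1 or 2 it lay under the filter and was not tested. It was the only probe set of Rxra called for exon usage, and the Simes result of Rxra rests on it. A probe set this near the floor can hardly fall with its gene, and the part of that limit in the relative rise was not tested. In Pparg, probe set 4400848 went against the other 9, which had changes from 0.58 to 1.24. Its intensities were 151, 156 and 199 on the WT arrays and 127, 96 and 137 on the SRSF3HKO arrays. Every SRSF3HKO array was lower, and WT replicate 2, the lowest WT array for the other 9 probe sets, was not low here. The relative change of -1.36 did not pass (diffSplice adjusted p 0.0927), and passed without WT replicate 2 (-1.06, adjusted p 0.0234) and, with a value of -1.36, under median centring and quantile normalization (0.0446 for both). Which exon these probe sets lie in was not determined here.

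**Figure D4:**
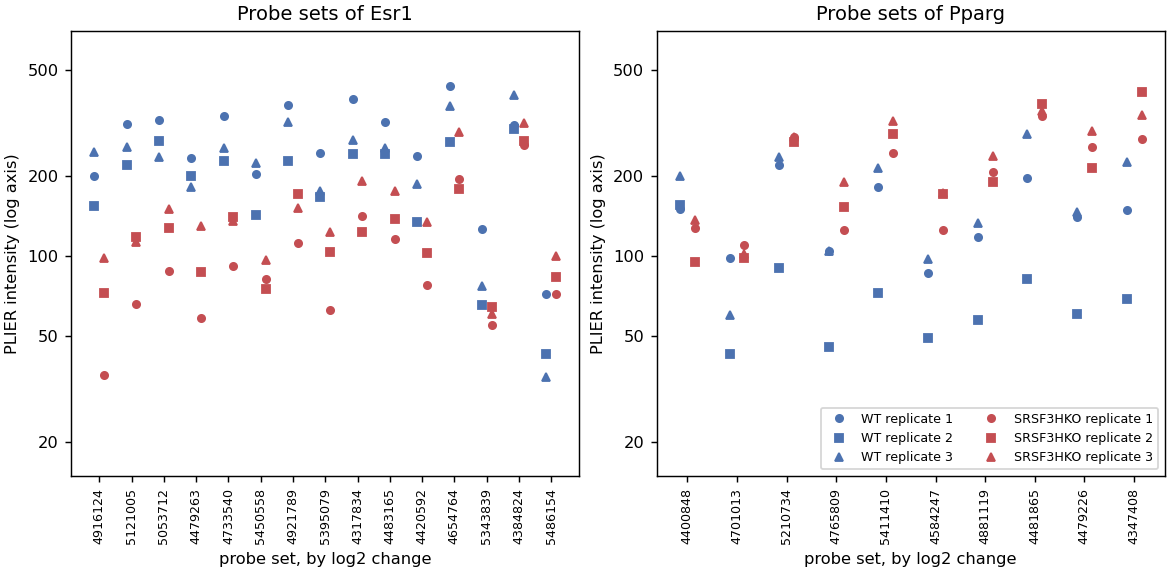
Intensity (log axis) of each tested probe set of Esr1 and Pparg on every array, WT in blue and SRSF3HKO in red, with the marker shape for the replicate and probe sets ordered by their log2 change. Probe set 5486154 of Esr1 at the far right and probe set 4400848 of Pparg at the far left run against the rest of their genes, and WT replicate 2 is the lowest array for 9 of the 10 probe sets of Pparg.

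Over all the target lists together, with each gene counted once, 66 genes were tested, of which 9 rose and 10 fell. That was 28.8% against 11.9% of all tested genes, and the median change was -0.04. The list of oestrogen targets and inactivation is included, so the oestrogen-inactivating enzymes Sult1e1 and Hsd17b2 count among the 66. The group mean of Cidec and Sult1e1 in WT and of Dio1 in SRSF3HKO liver lay under the floor. Each passed the filter through the other group, so the counts depend in part on the outcome. Genes that a receptor induces and genes that it represses were pooled. The lists were written with earlier results of these data known, so their counts are a description. Among 20 tested other nuclear receptors, 3 fell and 1 rose, 20% against 11.9% of all tested genes, and the median change was -0.18. The glucocorticoid receptor gene Nr3c1 was at 8.90, 8.83 and 9.05 in WT and 8.11, 8.19 and 8.22 in SRSF3HKO liver and fell by 0.76 ± 0.18 (SE, n = 3 per group; adjusted p 0.032 in limma). The retinoic acid receptor gene Rara fell by 0.75 ± 0.19 (0.0404) and the orphan receptor gene Nr2f6 by 0.80 ± 0.21 (0.0432). Esrra, an orphan receptor of mitochondrial biogenesis, rose from 7.42, 6.85 and 7.28 to 8.51, 8.40 and 8.97, a change of 1.45 ± 0.24 (0.0104; 0.0569 without WT replicate 2). The calls of Nr3c1, Rara and Nr2f6 held only without SRSF3HKO replicate 2, with adjusted p of 0.0593 to 0.133, 0.0559 to 0.152 and 0.0936 to 0.173 without another array. With Y-linked signal in the fit, the calls of Pdk4, Cd36, Cyp2c29, Abcg5, Slc51b, Abcb11, Me1, Ctsd, Nr3c1, Rara and Nr2f6 ended (limma's adjusted p 0.0547 to 0.11), and those of Cidec, Gadd45b, Abcb1a, Aldh1a1, Scd1, Cyp8b1, Fetub, Dio1, Sult1e1, Hsd17b2 and Esrra held. Of 15 tested coactivators and corepressors, 0 passed in limma, where 3 were higher and 1 lower at an unadjusted p under 0.05, and the median change was 0.06.

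**Figure D5:**
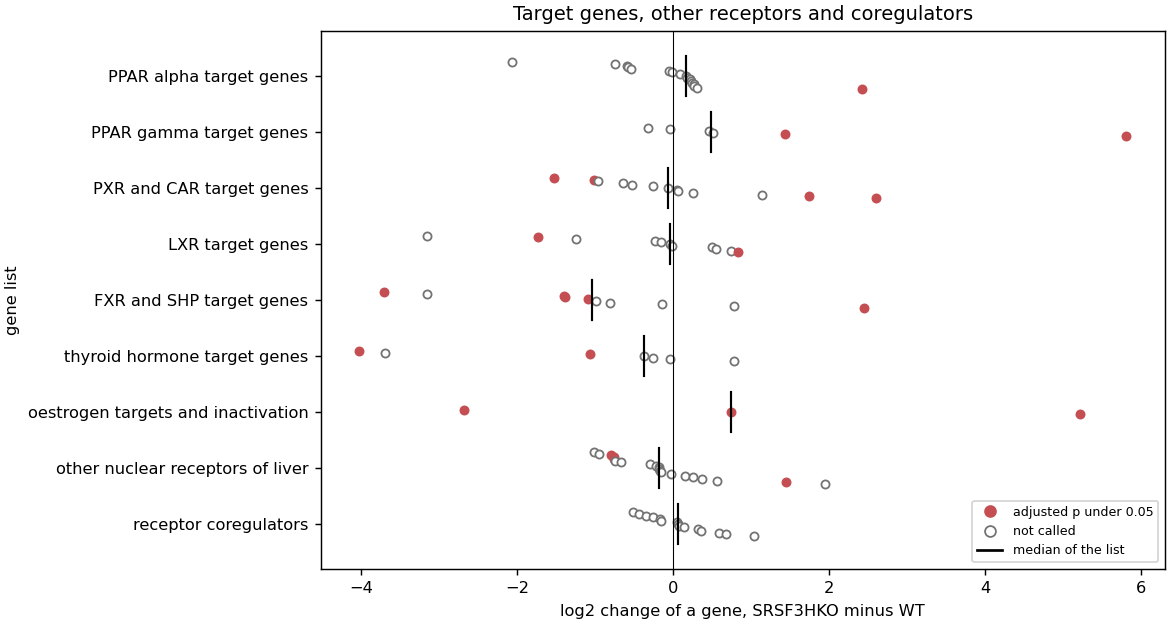
Log2 change of each tested gene of the target lists, the other nuclear receptors and the coregulators, SRSF3HKO minus WT, filled where limma's adjusted p was under 0.05, with a bar for the median of the list. The medians run from -1.04 for FXR and SHP targets to 0.74 for the 3 oestrogen genes, and Cidec and Sult1e1 are the points beyond 5.

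The tested genes most like each receptor that fell were found by the root mean square difference between log2 profiles over the 6 arrays, each centred on its own mean. For Rxra they were Arhgef10l (0.044) and Zhx1 (0.057), for Thrb Eef2k (0.076) and Nfib (0.091), for Ppara Mfsd3 (0.086) and Scap (0.107), and for Esr1 Elmo3 (0.106) and B4galnt1 (0.117). Nfib fell by 1.12 on the log2 scale (adjusted p 0.0094 in limma) and Scap had a change of -0.77 (0.0646).

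Called markers of liver cell types were near the 11.9% of all tested genes, at 1 of 8 hepatocyte, 1 of 6 endothelial and 1 of 7 stellate cell markers. Hepatocyte markers summed to an intensity of 90994 to 95272 in WT and 76167 to 77294 in SRSF3HKO liver, 7 of 8 had a negative change, and 1, Serpina1c, fell. Serpina1c alone went from 11419 to 12810 in WT to 2727 to 5095 in SRSF3HKO liver, and the other 7 summed to 78489 to 82462 and 71179 to 74408. In whole liver, fewer cells of a type and less RNA per cell cannot be told apart, and the part of this difference in the fall of the receptors was not tested. Kdr was the endothelial and Col3a1 the stellate cell marker that fell. None of 5 tested cholangiocyte and 4 tested lymphocyte markers passed in limma, where 2 and 0 were higher and 0 and 0 lower at an unadjusted p under 0.05. Of 6 male-biased liver genes, 5 fell, against 5.03% of all tested genes. These 5 summed to an intensity of 10370, 9164 and 1337 on the WT arrays and 82.1, 69.4 and 117 on the SRSF3HKO arrays. Cyp2d9, which did not pass, was at 4500, 4015 and 1570 in WT and 3241, 4405 and 4816 in SRSF3HKO liver. Of 5 tested female-biased genes 1, Hao2, fell.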

How the data were processed

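The comparison used 3 SRSF3HKO and 3 WT arrays of liver RNA. The deposited intensities are on a linear scale. PLIER and Affymetrix Expression Console made them, per the submitters' processing notes, from core exon probe sets, per the labels; versions and the background step are not given in the sources used here. Genotypes come from the labels, and replicate numbers follow sample order.

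Of 229581 probe sets, 208397 named 1 gene in the platform annotation, 3965 named more and 17219 named no gene; gene levels used single-gene probe sets only. Symbols were current for 14132, updated for 2124 and kept for 43. Intensities were taken as log2(value + 16), and a gene's level was the median over its probe sets. The floor was the 90th percentile of 1044 taste, olfactory and vomeronasal receptor genes. At gene level it was 5.35 (log2) and left 11707 genes, and at probe set level it was 5.62 and left 157833 probe sets. Folds of genes with a group under the floor are lower bounds. limma 3.58.1 (eBayes with trend) in R 4.3.3 tested genotype, and diffSplice tested exon usage in genes with at least 3 tested probe sets, each with Benjamini-Hochberg adjustment over all features and a threshold of 0.05. The scripts were tested on simulated data. The number of arrays limits the precision.

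Alternatives were quantile normalization or median centring, a pseudocount of 1 or 64, other summaries, filters and variance models, an adjusted p under 0.01, the splicing index, Y-linked signal as a covariate, and leaving out each array. Named were all receptor genes, a set of defining targets and, from each list, the called genes of lowest adjusted p, up to 4. The members and lists were chosen with earlier results of these data known. Promoters are from RefSeq (GRCm38.p6), matched by symbol for all 10 receptor genes and 62 genes of the target lists, which include the list of oestrogen targets and inactivation. Other software was Python 3.11.15 with matplotlib 3.10.9, numpy 2.4.6 and pandas 2.3.3, and data.table (version 1.17.8).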

Additional observations from a re-analysis of the deposited data

How the results depend on the processing

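The 4 receptor calls rest on few arrays. The direction of Rxra, Ppara, Thrb and Esr1 held under every alternative run, but the count of called receptors was 0 at an adjusted p under 0.01, 1 (Thrb) with Y-linked signal as a covariate, 2 with the mean over probe sets, and 0 to 4 on leaving out 1 array, with 0 whenever a WT replicate was left out. The count of changed genes, 1391, became 2157 with array weights, 296 at an adjusted p under 0.01, 618 with Y-linked signal and 244 to 2155 on leaving out 1 array. The 19 changed genes of the target lists became 4, 10 and 4 to 19 under the last 3 of these. The 28 receptor probe sets became 8 without a filter, 16 with eBayes without trend, 44 with array weights, 0 at an adjusted p under 0.01, 2 with Y-linked signal and 0 to 34 on leaving out 1 array. The 2 probe sets called for exon usage became 0 by the splicing index, 1 each with a pseudocount of 1, without a filter, at an adjusted p under 0.01 and with Y-linked signal, 1 to 2 on leaving out 1 array, and 3 under median centring and under quantile normalization. The cause of these differences was not tested.

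Among the genes named in the text, calls also ended for Abcg5 and Slc51b with a pseudocount of 1, Abcg5 with one of 64, under median centring, without trend and with robust eBayes, and Abcb11 and Cyp2c29 under quantile normalization (limma's adjusted p 0.0507 to 0.067). They ended for Abcb11, Abcg5, Nr2f6, Ppara and Rara without a filter (0.0523 to 0.0639), for the same 5 and Rxra with the mean (0.0639 to 0.0951), and for Abcb11, Abcg5, Nr2f6 and Ppara with median polish over probe sets (0.0583 to 0.135), where Fabp4 passed (0.049).

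Signs turned only for genes that were not called, whose values on leaving out 1 array ran from -0.40 to 0.41 (Cyp4a14), -0.71 to 0.67 (Cyp2b10), -0.15 to 0.042 (Cyp3a11), -0.27 to 0.017 (Abca1), -0.63 to 0.26 (Nr1i2) and -0.50 to 0.75 (Nr0b2). The change of Cyp4a14 was 0.037 under quantile normalization, 0.039 with array weights, 0.081 with the mean and 0.017 with median polish over probe sets, 0.27 without WT replicate 3 and 0.41 without SRSF3HKO replicate 1. That of Cyp2b10 was -0.0075 under quantile normalization, -0.068 with the mean, -0.056 without WT replicate 2 and -0.71 without SRSF3HKO replicate 3. That of Cyp3a11 was 0.0054 with array weights, 0.018 with the mean, 0.028 with median polish and 0.042 without SRSF3HKO replicate 2. Abca1 was at 0.017 without WT replicate 1, Nr1i2 at 0.26 without SRSF3HKO replicate 2, and Nr0b2 at -0.31, -0.052 and -0.50 without WT replicate 2, SRSF3HKO replicate 1 and SRSF3HKO replicate 3.

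No paired analysis was possible because the labels give no replicate numbers that the genotypes share.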
